A study of Mus musculus with 9 samples.

Results

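Lysophosphatidic acid (LPA) and sphingosine 1-phosphate (S1P) are small signalling lipids that act through G protein-coupled receptors on the cell surface. The genes described here are 10 members of that system: the LPA receptor genes Lpar1, Lpar2, Lpar3, Lpar4 and Lpar6, the S1P receptor genes S1pr1, S1pr2 and S1pr3, and the lipid phosphate phosphatase genes Plpp1 and Plpp3. They were chosen by name from 19858 genes with a probe set of their own on the array, each had 1 such probe set, and 9 of the 10 were bright enough to be tested. Lpar3 was the exception.

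The cells were primary cultures taken from the brown fat between the shoulder blades, a thermogenic tissue; the donors were male C57BL/6 mice, 5 weeks old per the labels. Precursor-enriched cells were plated in medium with newborn calf serum, differentiated with rising doses of insulin in all groups, and collected at about day 9. Each of 3 groups held 3 arrays with subject numbers of their own: DMSO vehicle (control 1 to 3), the autotaxin inhibitor HA155 at 2.5 µM (HA155 4 to 6) and 1-oleoyl-LPA at 5 µM (LPA 7 to 9). How long the cells were exposed is uncertain: treatment falls during differentiation in the design text but at 9 days in vitro in the labels. Each array reads bulk RNA of a whole culture, in which fewer cells of a type and less RNA per cell cannot be told apart. The question asked by the series is which genes respond to LPA and to inhibition of the enzyme that makes it.

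Autotaxin makes LPA outside the cell from lysophosphatidylcholine. LPA then binds receptors of distinct families: LPA1 to LPA3 belong with the S1P receptors to the EDG family, while LPA4 and LPA6 are closer to the purinergic P2Y receptors. The lipid phosphate phosphatases are membrane enzymes that remove the phosphate from LPA and S1P at the outer face of the cell and so end their action. In fat, LPA1 is known for its place on preadipocytes and for opposing adipocyte differentiation.

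With LPA, 5 of the 9 tested genes rose and 1 fell at a limma adjusted p below 0.05. Of all 13335 genes tested, 23.0% were called: 12.2% of those tested were higher and 10.8% lower. The genes that rose were Lpar1, S1pr1, S1pr3, Plpp1 and Plpp3, and the gene that fell was Lpar6. The median log2 difference over the 9 genes was 0.43, against 0.0052 over all genes tested. With HA155 none of the 9 passed, where 1.03% of all genes did (0.607% higher and 0.427% lower), and the differences ran from -0.12 to 0.09. The counts are set beside the background as a description, since the genes were chosen by name.

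Promoters are shown for 3 of the genes that rose with LPA, Lpar1, S1pr3 and Plpp3, and for Lpar6, which fell, because these genes moved together or apart in the same arrays. Each sequence runs 5′ to 3′ on the strand of the gene from 250 bases before its start to 50 after it, from RefSeq on GRCm38.p6, and capitals mark a match to one of the 5 motifs searched.
Lpar1, chr4:58553442-58553741, minus strand: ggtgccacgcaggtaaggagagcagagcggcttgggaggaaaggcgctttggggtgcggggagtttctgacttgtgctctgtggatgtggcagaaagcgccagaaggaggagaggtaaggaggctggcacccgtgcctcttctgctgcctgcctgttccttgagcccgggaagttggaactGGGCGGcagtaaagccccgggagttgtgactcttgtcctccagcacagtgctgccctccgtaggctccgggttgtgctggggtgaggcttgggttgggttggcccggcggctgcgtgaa
S1pr3, chr13:51408368-51408667, plus strand: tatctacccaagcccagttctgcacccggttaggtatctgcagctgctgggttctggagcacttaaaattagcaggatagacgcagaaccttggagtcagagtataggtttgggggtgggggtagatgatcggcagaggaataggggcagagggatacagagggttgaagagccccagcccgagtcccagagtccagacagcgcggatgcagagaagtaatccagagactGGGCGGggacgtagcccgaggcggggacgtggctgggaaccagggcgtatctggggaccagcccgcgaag
Plpp3, chr4:105157097-105157396, plus strand: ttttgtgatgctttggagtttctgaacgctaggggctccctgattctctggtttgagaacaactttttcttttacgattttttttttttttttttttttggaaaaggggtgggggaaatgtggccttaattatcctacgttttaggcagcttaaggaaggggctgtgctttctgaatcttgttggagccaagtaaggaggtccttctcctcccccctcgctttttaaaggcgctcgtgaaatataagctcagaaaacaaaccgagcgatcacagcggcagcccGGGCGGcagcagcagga
Lpar6, chr14:73237641-73237940, plus strand: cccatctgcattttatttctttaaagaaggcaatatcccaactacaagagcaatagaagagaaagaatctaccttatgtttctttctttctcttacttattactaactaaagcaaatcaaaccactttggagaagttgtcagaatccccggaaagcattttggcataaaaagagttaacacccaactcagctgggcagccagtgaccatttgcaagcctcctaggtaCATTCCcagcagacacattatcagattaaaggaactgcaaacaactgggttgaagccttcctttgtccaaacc
The Lpar1 sequence is the most upstream of the 3 starts listed for that gene.

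The motifs were searched on both strands. They were the CArG box of serum response factor, GGAATG of TEAD factors, TGANTCA of AP-1, GGGCGG of Sp1-type factors and TATAAA of the TATA box. Each of the windows shown held 1 match in all, so none overlapped another: GGGCGG in Lpar1, S1pr3 and Plpp3, and GGAATG, written on the other strand, in Lpar6. GGGCGG was found in 8 of the 10 promoter windows listed for 8 of the genes, and in 35.7% of all 32851 windows of the same 300 bases. GGAATG was found in 1 of the 10 and in 14.7% of all windows. None of the 10 held a CArG box, which 1.63% of all windows did. TGANTCA was in 1 of the 10, that of Lpar2, and in 7.81% of all windows, and TATAAA in 1, that of Lpar4, and in 13.6%. A match describes letters in the window and is no evidence of binding. GC content was 63% in the Lpar1 window, 59% in S1pr3, 46% in Plpp3 and 40% in Lpar6.

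**Figure D1:**
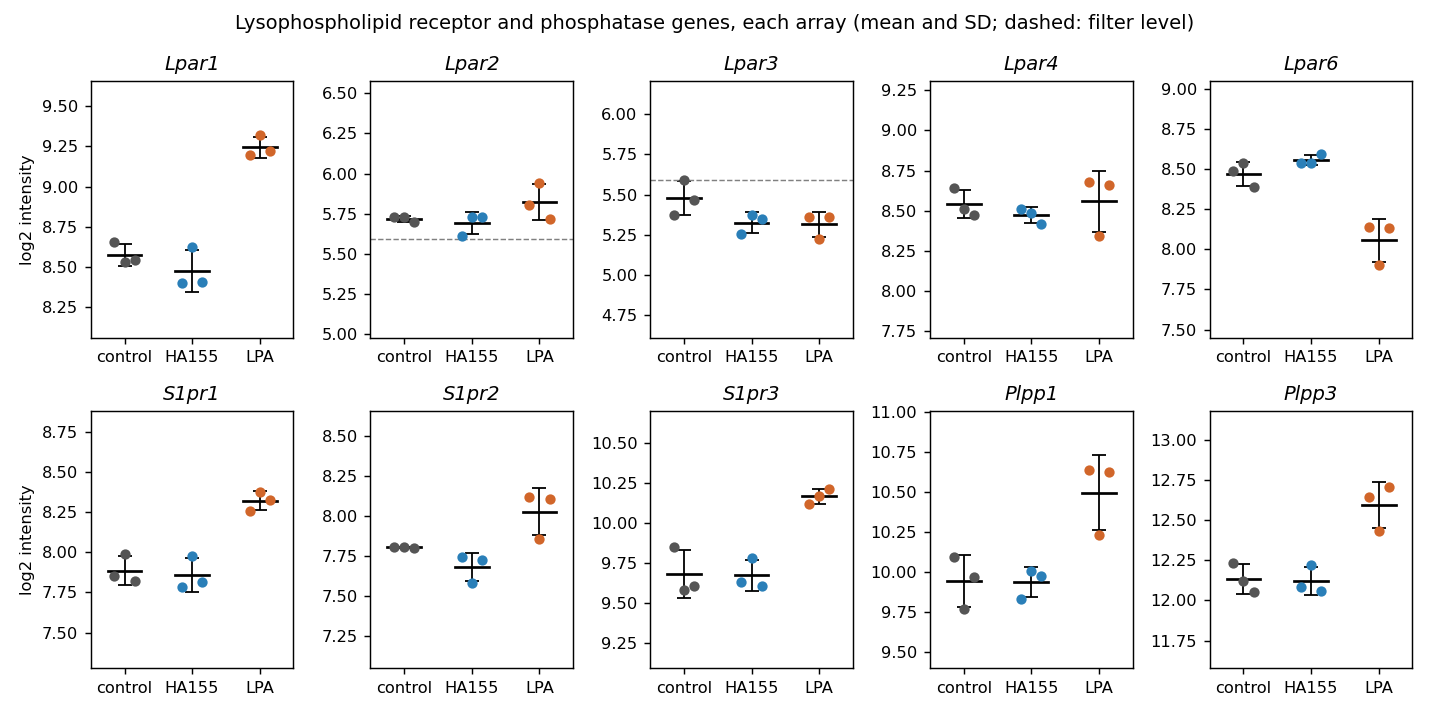
Log2 intensity of each gene on each of the 9 arrays, by group (3 arrays each), with the group mean as a bar and 1 SD as whiskers; every panel spans the same height, and the dashed line in the Lpar2 and Lpar3 panels is the filter level of 5.59. Lpar1, S1pr1, S1pr3, Plpp1 and Plpp3 lie higher in all LPA arrays than in any other array, and Lpar6 lies lower.

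Lpar1 encodes LPA1, an LPA receptor that couples to several G protein families. Its log2 intensity was 8.65, 8.53 and 8.54 in the control arrays, 8.40, 8.62 and 8.40 with HA155, and 9.19, 9.32 and 9.22 with LPA. The LPA arrays lay above all 6 others, with a gap of 0.54 to the highest control, while control and HA155 overlapped. Lpar1 rose with LPA by 0.67 (SE 0.08, 95% interval 0.50 to 0.84, limma adjusted p = 7.89e-05), a fold of 1.59. This rise ranked number 208 of the 13335 genes. The difference with HA155 was -0.10 (95% interval -0.27 to 0.06, limma adjusted p = 0.877).

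Lpar2 encodes LPA2, another LPA receptor of the EDG family. Its signal was low, not far over the filter level of 5.59 in any array. The control arrays read 5.73, 5.73 and 5.70, the HA155 arrays 5.61, 5.73 and 5.73, and the LPA arrays 5.80, 5.94 and 5.72. Control and LPA overlapped, and 2 of the arrays in control and 2 with HA155 held 1 identical value, which understates the spread. The difference with LPA was 0.11 (95% interval -0.05 to 0.26, limma adjusted p = 0.313) and with HA155 -0.03 (95% interval -0.18 to 0.12). Without LPA 8, the brightest LPA array for Lpar2, the LPA difference was 0.04 (limma adjusted p = 0.655). Both intervals leave out a measured change of the size seen for Lpar1. RMA compresses changes of probes with a low signal and the identical values may narrow the intervals, so they do not exclude a true change of that size.

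Lpar3, which encodes the EDG-family receptor LPA3, had a mean of 5.37, under the filter level, and was not tested in the main fit. Its arrays read 5.38, 5.59 and 5.47 in control, 5.25, 5.38 and 5.35 with HA155, and 5.36, 5.22 and 5.36 with LPA. The LPA arrays lay below all controls by a gap of 0.015, smaller than the spread within any group. In a fit without the filter the difference was -0.16 for LPA (limma adjusted p = 0.196) and -0.15 for HA155 (limma adjusted p = 0.761). No change was detectable at this brightness.

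Of the P2Y-like receptors, Lpar4 did not change detectably. It read 8.64, 8.51 and 8.47 in control, 8.51, 8.48 and 8.42 with HA155, and 8.68, 8.34 and 8.66 with LPA. The control arrays fell inside the range of the LPA arrays, whose lowest, LPA 8, stood 0.33 under the mean of LPA 7 and LPA 9. The difference was 0.02 with LPA (95% interval -0.18 to 0.22, limma adjusted p = 0.918) and -0.07 with HA155 (95% interval -0.27 to 0.13, limma adjusted p = 0.951). Without LPA 8 the first became 0.13 (limma adjusted p = 0.204).

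Lpar6 encodes LPA6, a receptor known from inherited hair loss. Its arrays read 8.49, 8.54 and 8.39 in control, 8.54, 8.54 and 8.60 with HA155, and 8.14, 7.90 and 8.13 with LPA. All 3 LPA arrays lay below the 6 others, with a gap of 0.26 to the lowest control. Lpar6 fell with LPA by 0.41 (SE 0.07, 95% interval -0.58 to -0.25, limma adjusted p = 0.00188), a fold of 0.751. With HA155 it measured 0.09 (95% interval -0.08 to 0.25, limma adjusted p = 0.902). Without LPA 8, the lowest of its arrays, the fall was 0.34 (limma adjusted p = 0.00252).

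Lpar6 lies wholly inside the span of the gene Rb1, the retinoblastoma tumour suppressor, in the RefSeq table. Rb1 was looked up after the value of Lpar6 was known. It has 1 probe set of its own, which read 8.78, 8.66 and 8.74 in control, 8.81, 8.70 and 8.76 with HA155, and 7.97, 8.28 and 8.23 with LPA. The LPA arrays of Rb1 too lay below the 6 others. Rb1 fell with LPA by 0.57 (SE 0.08, limma adjusted p = 0.000484) and measured 0.03 with HA155 (limma adjusted p = 0.985). The array with the lowest value differed, LPA 7 for Rb1 and LPA 8 for Lpar6. By likeness of profile to Lpar6 over the 9 arrays Rb1 ranked number 1339 among the genes tested. That rank counts the size of a change as well as its direction, and Rb1 fell by more than Lpar6. Whether RNA of the host gene reaches the Lpar6 probes was not tested.

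Lpar1 and Lpar6 can also be set against each other within each array, where a scaling factor common to all probe sets of the array cancels but an intensity-dependent one, as in quantile normalization, need not. Lpar1 minus Lpar6 on the log2 scale was 0.10 ± 0.10 in control, -0.08 ± 0.15 with HA155 and 1.19 ± 0.20 with LPA (SD, n = 3 each). The 3 LPA arrays gave 1.06, 1.42 and 1.09, and the largest value among the other 6 arrays was 0.17. This pair was picked for its opposite changes, so the size is a description, and it compares changes and not levels, which differ between probe sets.

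S1pr1 encodes S1P1, a receptor coupled to inhibitory G proteins and best known in endothelium and lymphocytes. It read 7.85, 7.99 and 7.82 in control, 7.78, 7.98 and 7.82 with HA155, and 8.26, 8.38 and 8.33 with LPA. The LPA arrays lay above the other 6 with a gap of 0.27 to the highest control. S1pr1 rose by 0.43 (SE 0.07, 95% interval 0.28 to 0.59, limma adjusted p = 0.00115), a fold of 1.35. With HA155 the difference was -0.03 (95% interval -0.19 to 0.13, limma adjusted p = 0.985).

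S1pr2, which encodes the S1P receptor S1P2, read 7.81, 7.81 and 7.80 in control, 7.74, 7.59 and 7.72 with HA155, and 8.12, 7.86 and 8.10 with LPA. The groups did not overlap and stood in the order HA155, control, LPA, with gaps of 0.06 and 0.05. These gaps were smaller than the SD of the HA155 arrays (0.09) and of the LPA arrays (0.15). Neither step from control passed the test: LPA differed by 0.22 (95% interval 0.05 to 0.39, limma adjusted p = 0.0642) and HA155 by -0.12 (95% interval -0.29 to 0.05, limma adjusted p = 0.836). LPA against HA155 differed by 0.34 (SE 0.08, limma adjusted p = 0.00689). The LPA call depended on 1 array, since S1pr2 was higher by 0.31 without LPA 8 (limma adjusted p = 0.00482). It was also called, at 0.27, with array weights (limma adjusted p = 0.025). That fit gave LPA 8 the lowest weight of the 9 arrays (0.25), so it is not separate from the fit without LPA 8. Counting it, 7 of the 9 genes would be called for LPA in those fits.

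S1pr3 encodes S1P3, a receptor of fibroblasts, smooth muscle and heart that couples broadly. Its arrays read 9.85, 9.58 and 9.61 in control, 9.63, 9.78 and 9.61 with HA155, and 10.12, 10.17 and 10.21 with LPA. The 3 LPA arrays lay close together and above all others. S1pr3 rose with LPA by 0.49 (SE 0.08, 95% interval 0.31 to 0.67, limma adjusted p = 0.00121), a fold of 1.40, and measured -0.0061 with HA155 (95% interval -0.19 to 0.17, limma adjusted p = 0.994).

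Both phosphatase genes rose with LPA. Plpp1 encodes lipid phosphate phosphatase 1 (older name Ppap2a) and read 10.09, 9.77 and 9.97 in control, 9.83, 10.01 and 9.98 with HA155, and 10.63, 10.23 and 10.62 with LPA. The LPA arrays lay above the others, but LPA 8 stood 0.40 under the mean of LPA 7 and LPA 9, and the gap to the highest control was 0.13. Plpp1 rose by 0.55 (SE 0.12, 95% interval 0.30 to 0.81, limma adjusted p = 0.00516), a fold of 1.46, with 0.68 without LPA 8 (limma adjusted p = 0.000579). With HA155 it measured -0.0066 (95% interval -0.26 to 0.25, limma adjusted p = 0.996).

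Plpp3 encodes lipid phosphate phosphatase 3 (older name Ppap2b), which is needed for vascular development and limits LPA signalling in vessel walls. It read 12.23, 12.12 and 12.05 in control, 12.08, 12.22 and 12.06 with HA155, and 12.65, 12.43 and 12.71 with LPA. All LPA arrays were above all others, by a gap of 0.20 over the highest control. Plpp3 rose by 0.46 (SE 0.08, 95% interval 0.28 to 0.65, limma adjusted p = 0.00207), a fold of 1.38, and measured -0.01 with HA155 (95% interval -0.20 to 0.17, limma adjusted p = 0.99). In the RefSeq table Plpp1 overlaps the neighbouring gene Mtrex, which measured -0.10 with LPA (limma adjusted p = 0.436). Lpar1 (Mir3095 and Gm12577) and S1pr3 (Gm32834) overlap genes there too, none of which had a probe set of its own.

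**Figure D2:**
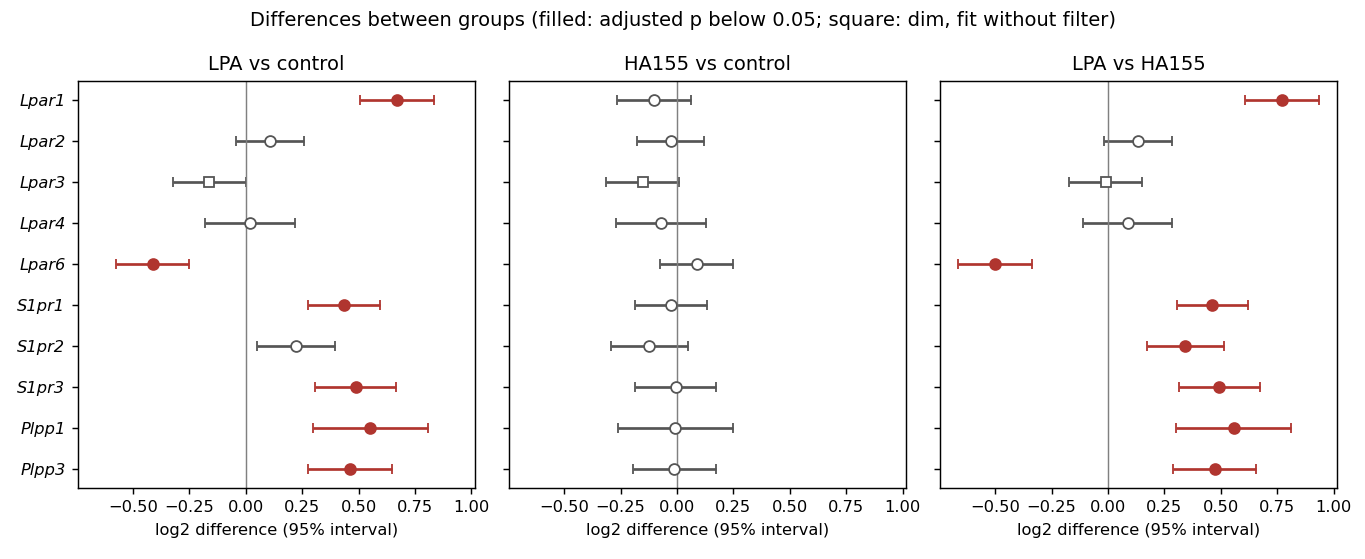
Log2 differences with 95% intervals for each gene in 3 comparisons (x axis), filled where the limma adjusted p was below 0.05 and square for Lpar3, which was dim and comes from the fit without the filter. With LPA the called values run from -0.41 for Lpar6 to 0.67 for Lpar1; with HA155 all points lie near 0.

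With HA155, 0 of the 9 tested genes had an unadjusted p below 0.05 by limma, where 8.11% of all genes tested did, and the smallest adjusted p was 0.836 (S1pr2). With so few calls over all genes, a count of 0 among 9 is near the background and says nothing particular of these genes. The 95% intervals of the 9 genes lay between -0.29 and 0.25 on the log2 scale. Measured changes of the size seen for Lpar1, S1pr3 or Plpp1 with LPA were outside them. For Lpar2, with its low signal near the filter level, this does not exclude a true change of that size. Groups did not overlap for Lpar6 and S1pr2, 2 of 9 genes, where 16.8% of all genes tested did not overlap between HA155 and control. The gaps were 0.0033 for Lpar6 and 0.06 for S1pr2.

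Between LPA and HA155, 6 of the 9 genes were higher with LPA and 1 was lower, where 26.1% of all genes were called. The same genes as against control, joined by S1pr2, made up the 7, and this comparison shares the LPA arrays with the first. The difference was 0.77 for Lpar1 (limma adjusted p = 2.14e-05) and -0.50 for Lpar6 (limma adjusted p = 0.000444). For S1pr1 it was 0.46, for S1pr3 0.49, for Plpp1 0.56 and for Plpp3 0.47 (limma adjusted p = 0.00405 or less for these 4). Lpar2 measured 0.13 (95% interval -0.02 to 0.28) and Lpar4 0.09 (95% interval -0.11 to 0.29). Without LPA 8 these became 0.07 for Lpar2 (limma adjusted p = 0.448) and 0.20 for Lpar4 (limma adjusted p = 0.0513). By limma's moderated F over the 3 groups 7 of the 9 passed, where 24.5% of all genes did. The exceptions were Lpar2 (adjusted p = 0.338) and Lpar4 (adjusted p = 0.76). Groups did not overlap between LPA and control for 7 of the 9 genes, where 33.1% of all genes tested did not overlap, and between LPA and HA155 also for 7 of 9, where 38.7% did not.

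The median intensity of the arrays was 70.7 to 72.8, and the LPA arrays scattered more than the rest. Their median SD was 0.13 over the 9 genes and 0.11 over all genes tested, against 0.09 and 0.07 in control and 0.09 and 0.05 with HA155. LPA 8 lay below both other LPA arrays by over 0.2 for 5 genes, Lpar4, Lpar6, S1pr2, Plpp1 and Plpp3, and it also lay farthest from the other groups over all genes (first principal component 28.7, against 19.6 and 20.8 for LPA 7 and LPA 9 and -15.5 to -7.28 for the 6 others). It stood 0.11 above the mean of the other LPA arrays for Lpar1, 0.08 above for S1pr1 and 0.0027 above for S1pr3.

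The changes came beside a shift between adipocyte and precursor genes. All 10 adipocyte markers fell with LPA, Adipoq by 1.35, and their summed intensity was 26752 to 27791 in control, 29012 to 30856 with HA155 and 13000 to 14224 with LPA. Of 6 tested brown adipocyte markers 4 fell, and summed over all 10 the intensity was 1762 to 1868 in control, 2700 to 2848 with HA155 and 1024 to 1170 with LPA. Ucp1, the uncoupling protein that defines heat-producing brown fat, was dim, as were Dio2 and Elovl3. Cidea was dim by its mean (5.35), but its arrays ran from 4.67 to 6.53. With HA155, 3 of the 10 adipocyte and 3 of the 6 brown markers rose, and the preadipocyte marker Dlk1 fell by 0.82 (limma adjusted p = 0.000609), the 1 call among 9 fibroblast and preadipocyte markers. Of 9 fibroblast and preadipocyte markers 7 rose and 1 fell with LPA, Pdgfra rising by 0.44, and their summed intensity was 42953 to 45208 in control, 39421 to 42550 with HA155 and 53402 to 55543 with LPA. The part of this shift in the changes of the receptors and phosphatases was not tested.

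Other cell types were read from marker lists of their own, with each summed intensity taken over all genes of the list with a probe set, dim ones included. Of 12 endothelial markers, where S1pr1 is well known, 8 were tested and 1 rose and 1 fell, with summed intensities of 867 to 932 in control, 814 to 854 with HA155 and 891 to 906 with LPA. Pecam1 was dim, at 5.45 in control and 5.46 with LPA, and Cdh5 read 5.58 and 5.75 (limma adjusted p = 0.313). Of 9 tested pericyte and smooth muscle markers 3 rose and 2 fell, with sums over 10 genes of 3078 to 3384 in control, 3474 to 4010 with HA155 and 3920 to 4099 with LPA, and Rgs5 was dim. Mcam was the 1 of them called with HA155 (-0.32, limma adjusted p = 0.0392). It was also 1 of the 2 that fell with LPA (-0.96, limma adjusted p = 1.87e-06). Acta2, the brightest gene of the list and so the largest part of its sum, was 1 of the 3 that rose (0.54). None of 7 tested macrophage and leukocyte markers passed with LPA by limma (0 at an unadjusted p below 0.05), with sums over 12 genes of 793 to 909 in control, 983 to 1143 with HA155 and 786 to 1088 with LPA, and Ptprc and Adgre1 were dim. Of 10 skeletal muscle markers 5 rose, with sums of 1124 to 1200 in control, 1138 to 1247 with HA155 and 1518 to 1819 with LPA, while Myog, a factor of muscle differentiation, measured 0.02 with LPA. Myh1 was the 1 muscle marker called with HA155 (0.64, limma adjusted p = 0.00695). None of 3 tested mesothelial markers passed with LPA by limma (0 at an unadjusted p below 0.05), with sums over 6 genes of 295 to 343 in control, 305 to 316 with HA155 and 301 to 359 with LPA. Of 5 Schwann cell markers 1 rose, Ncam1 by 0.74 (limma adjusted p = 0.000131), while Sox10 measured 0.01 with LPA. The sums of these markers were 815 to 860.5 in control, 775 to 820.3 with HA155 and 978 to 1094 with LPA. Their part was not tested either.

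Genes around the receptors were read from 7 lists of genes related to lysophospholipids or their receptors. They held 86 genes in all, of which 83 had a probe set and 67 were tested. With LPA 10 rose and 14 fell, 35.8% of those tested against 23.0% of all genes, with a median log2 difference of 0.01. With HA155 none passed by limma, against 1.03% of all genes, and 5 of the 67 (7.46%) had an unadjusted p below 0.05, close to the 8.11% of all genes. Against HA155, 12 were higher with LPA and 14 lower, 38.8% against 26.1% of all genes.

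**Figure D3:**
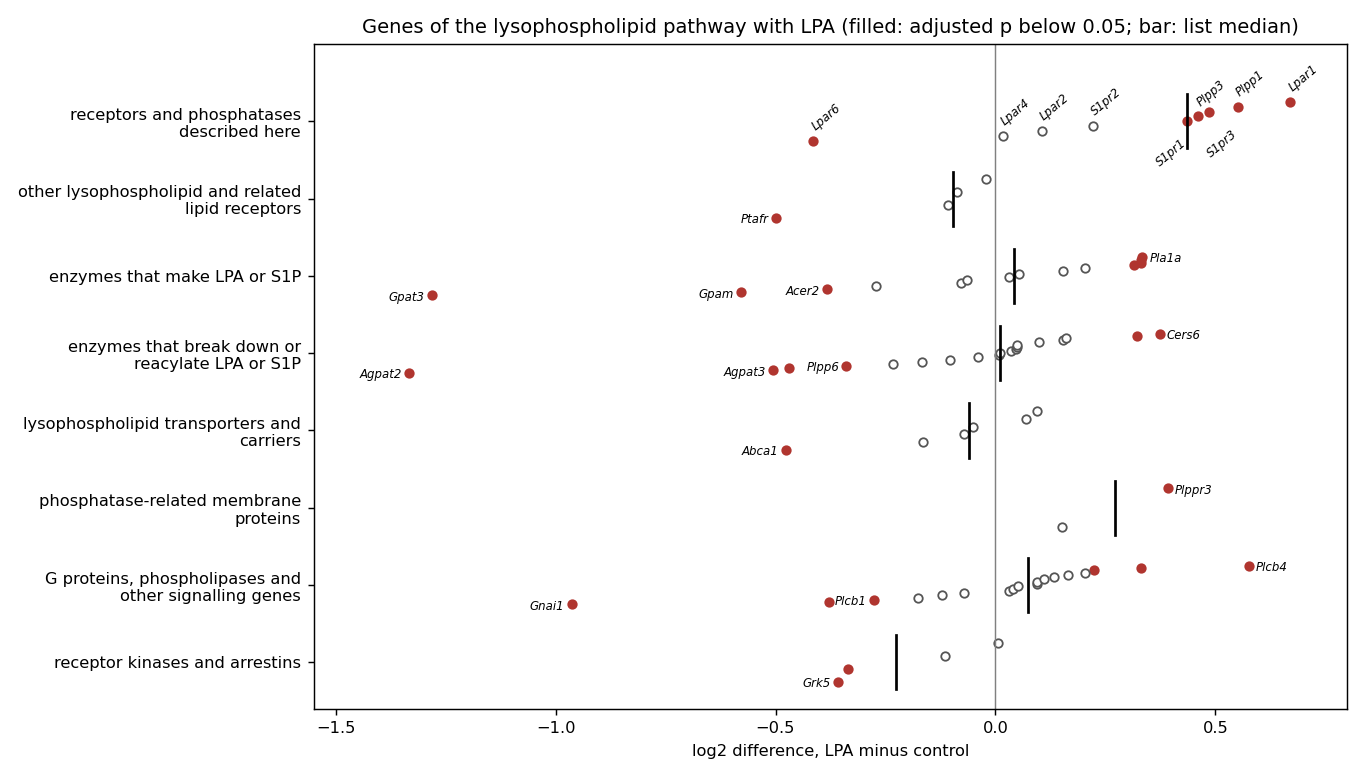
Log2 difference, LPA minus control, of every tested gene of the receptors and phosphatases described here and of 7 lists of related genes, filled where the limma adjusted p was below 0.05, with the median of each list as a bar. The largest falls are Agpat2, Gpat3 and Gnai1, and no gene outside the top line rose as far as Lpar1.

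Among 14 tested enzymes on a list for making LPA, S1P or related lipids, 4 rose and 3 fell with LPA. Not all of them form LPA or S1P directly, since the list holds ceramidases, which release sphingosine. Ceramidases were among both those that rose and those that fell. Gpat3 and Gpam, acyltransferases that form LPA inside the cell as the first step of glycerolipid synthesis, fell by 1.28 (limma adjusted p = 1.42e-06) and 0.58 (limma adjusted p = 0.000879). Gdpd1, a lysophospholipase D, rose by 0.33 (limma adjusted p = 0.00919), from 6.11 to 6.44.

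Pla1a, a secreted phospholipase that acts on phosphatidylserine, stood in a different order from control with each compound. Its arrays read 8.93, 8.80 and 8.87 in control, 8.52, 8.42 and 8.62 with HA155, and 9.21, 9.11 and 9.29 with LPA. The 3 groups did not overlap, with HA155 lowest and LPA highest. Pla1a rose with LPA by 0.33 (SE 0.07, limma adjusted p = 0.00627) and measured -0.34 with HA155 (limma adjusted p = 0.0579). The HA155 value passed the threshold in 6 of 18 alternative fits (adjusted p from 0.0151 to 0.249 over the 18), among them the fit without LPA 8 (adjusted p = 0.0302).

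Among 19 tested enzymes on a list for the breakdown or acylation of LPA, S1P and related lipids, 2 rose and 4 fell. The list holds ceramide synthases, which do not act on LPA or S1P, and a ceramide synthase was among those that rose. Agpat2 and Agpat3, which turn LPA into phosphatidic acid inside the cell, fell by 1.33 (limma adjusted p = 6.07e-06) and 0.50 (limma adjusted p = 0.00024). Acp6, a mitochondrial phosphatase for LPA, fell by 0.47 (limma adjusted p = 0.000603). Plpp6, a relative of the lipid phosphate phosphatases that acts on isoprenoid and presqualene diphosphates, fell by 0.34 (limma adjusted p = 0.0027). Agpat2, Gpat3 and Gpam are also genes of fat storage, and the adipocyte markers moved with them.

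The other groups held fewer changes. Ptafr, the receptor for platelet-activating factor, was the 1 of 4 tested related receptors that fell, by 0.50 (limma adjusted p = 0.00363), to a mean of 5.63 near the filter level. Abca1, a lipid exporter of the cell membrane, was the 1 of 6 tested transporters and carriers that passed, and it fell by 0.48 (limma adjusted p = 0.000104). Plppr3, a membrane protein related in sequence to the phosphatases, rose by 0.39 (limma adjusted p = 0.00271), and Plppr2 measured 0.15. Plppr2 was called for LPA against HA155 (0.20, limma adjusted p = 0.0308) but not in 7 of 18 alternative fits.

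Below the receptors, 3 of 18 tested genes rose and 3 fell with LPA. Gnai1, an inhibitory G protein alpha subunit, fell by 0.96 (limma adjusted p = 0.00011), and Plcb4, a phospholipase C, rose by 0.58 (limma adjusted p = 0.000867). Of 4 tested receptor kinases and arrestins, which end receptor signalling, Grk5 fell by 0.36 (limma adjusted p = 0.0205) and Arrb1 by 0.34 (limma adjusted p = 0.0226). Grk5 lost its call without control 1 or control 2 (adjusted p up to 0.0744), and Arrb1 in 6 of 18 alternative fits, those without control 1, control 3, LPA 7 or LPA 8 among them (adjusted p up to 0.0867).

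Profiles over the 9 arrays were compared by the root mean square difference of log2 values after centring each gene on its own mean. The genes nearest to Lpar1 were Man2a1 (0.04), a Golgi mannosidase, Dclk1 (0.04), a kinase tied to microtubules, and Mmp14 (0.04), a membrane-bound matrix protease. Those nearest to Lpar6 were Aldh9a1 (0.03), an aldehyde dehydrogenase, Ldha (0.04), lactate dehydrogenase A, and Atp5c1 (0.04), a subunit of ATP synthase. Nearest to Plpp3 were Mxra8 (0.03), B3gnt9 (0.03) and Fstl1 (0.04), to S1pr3 Rufy2 (0.04), Ddr2 (0.04), a collagen receptor, and Ikbip (0.05), and to S1pr1 Pcsk5 (0.06), Ext1 (0.06) and Eid1 (0.06). Nearest to S1pr2 were Aldh1a1 (0.05), Il6ra (0.05) and Gask1b (0.06), and to Plpp1 Tspan6 (0.05), Wsb1 (0.07) and Fbln5 (0.07), an elastic fibre protein.

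Such profiles were common for all but Plpp1. Within a distance of 0.1 lay 109 genes for Lpar1, 292 for Lpar6, 238 for S1pr1, 186 for S1pr2, 256 for S1pr3 and 179 for Plpp3. For Plpp1, whose LPA arrays scattered most of these genes (SD 0.23), there were 23. Within the set itself, the closest pair was S1pr3 and Plpp3 (0.08) and the next Plpp1 and Plpp3 (0.10), while Lpar1 and Lpar6 were the most distant (0.57).

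**Figure D4:**
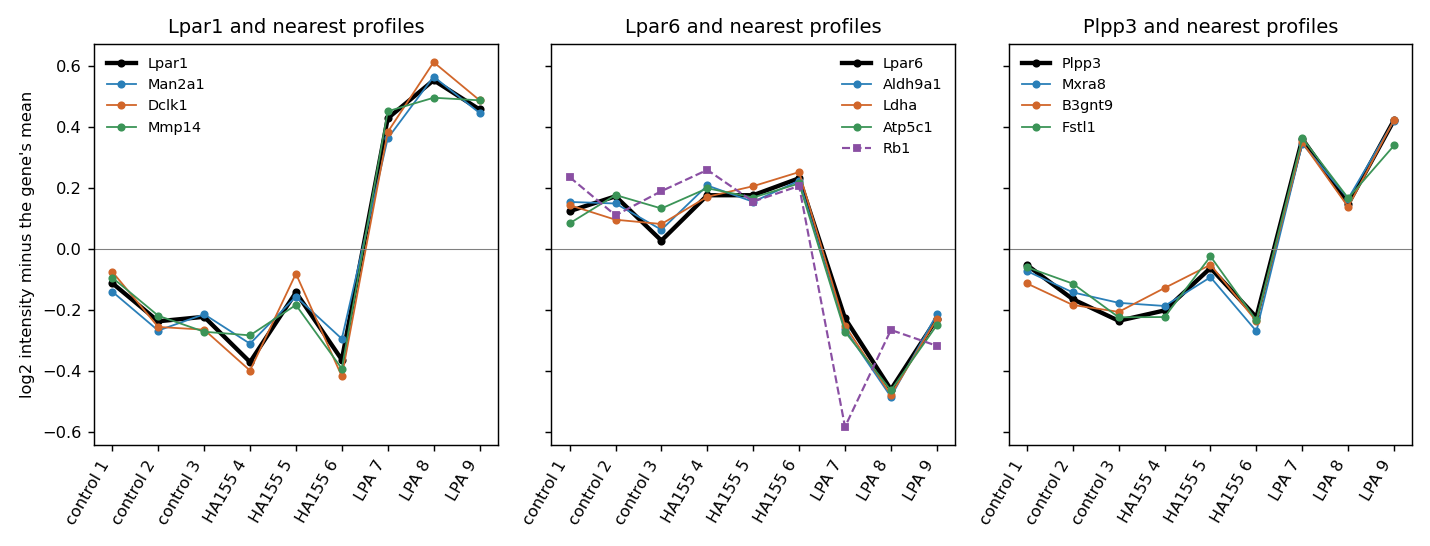
Log2 intensity minus each gene's mean over the 9 arrays (y axis) for Lpar1, Lpar6 and Plpp3 (thick black) and the 3 genes with the nearest profile to each; the dashed line is Rb1, whose span holds Lpar6. Lpar1 and Plpp3 step up and Lpar6 steps down at the LPA arrays, and Rb1 is lowest on LPA 7 where Lpar6 is lowest on LPA 8.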

How the data were processed

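Total RNA of 9 cultures, 3 per group, was hybridised to Affymetrix mouse gene arrays, per the labels' protocols. The intensity values deposited by the authors were made with RMA (background correction, quantile normalization and probe summary), per the submitters' processing notes, which name no version. Their linear scale was read from the values. RMA evens out the arrays, so a global shift is not seen, and it compresses changes of dim probes.

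Deposited intensities were put on a log2 scale without an offset. Among 35432 probe sets, 21706 had 1 gene symbol, 1605 several and 12121 were not listed. The brightest single-symbol probe set stood for each of 19858 genes, and 6523 with a mean below the 40th percentile (5.59, intensity 48.2) were left out as dim, which left 13335. Groups were compared with limma 3.58.1 in R 4.3.3 on all 9 arrays (two-sided, 6 residual degrees of freedom, no covariate, Benjamini-Hochberg over all genes tested, threshold 0.05). The procedure was tested on simulated data. The labels name no batch, and any batch aligned with treatment cannot be told apart from it. With 3 arrays against 3 an exact test of 1 gene cannot go below p = 0.1, so the model across genes is used. Precision is limited by the 9 arrays, with a median SE of 0.08 for a log2 difference. The design text describes 3 cultures per condition.

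The members, lists, motifs and named genes were chosen with earlier results of these data known. Named are every member, up to 4 genes per list by smallest p, and the 3 nearest profiles of each member past the moderated F. A set of defining markers is also named, with a few further markers picked with their values known. Rb1, Mtrex, Mir3095, Gm12577 and Gm32834 were looked up as genes overlapping a member. Enpp2 and Lpar5 were not analysed here. Some genes of the signalling list are not reported here by name. Alternatives changed the filter, offset, scaling, spread model, arrays in the fit and probe sets, and left out each array.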

Additional observations from a re-analysis of the deposited data

How the results depend on the processing

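The 6 genes called for LPA against control kept their direction and their call in each of the 18 alternative fits, and so did the 7 called for LPA against HA155. Several of these fits can change the p of a member but not its difference. Among them are those with another filter, with every probe set on its own, or without an array of the third group. The count for LPA against control was 6 or 7 throughout, the seventh being S1pr2 with array weights or without LPA 8. For LPA against HA155 the count was 7 in each fit that left out 1 array, and for HA155 against control it was 0 in each. The moderated F called 6 or 7 members when 1 array was left out. At the 50th percentile filter Lpar2 dropped out and 8 members were tested. Over all genes, HA155 against control gave 138 calls, 86 with no filter, 338 with array weights and 39 to 232 with 1 array left out (39 without control 2, 78 without control 1, 75 without control 3, 44, 47 and 56 without HA155 4, 5 and 6, and 232 without LPA 8). The fewest and most calls with 1 array left out were 2293 and 3144 for LPA against control and 2588 and 3462 for LPA against HA155. The cause of these shifts was not tested. No paired analysis was possible because the groups share no subject number. Lpar2 and Lpar3 lie near or under the filter level, where signal over background limits what can be seen.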

Other observations

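Several genes from the list of related receptors lay well under the filter level of 5.59 in every array: Gpr34 (highest array 3.25), P2ry10 (highest array 3.19), Gpr174 (highest array 3.40), Gpr4 (highest array 4.71) and Gpr65 (highest array 4.88). Gpr55, a receptor for lysophosphatidylinositol, reached 5.40. Of the enzymes and carriers, Liph reached 4.65, Lipi 3.90 and Apom, which carries S1P in plasma, 4.93. No change of these genes was tested at this brightness.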
